A study of Mus musculus with 19 samples.

Results

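The unfolded protein response genes described here are 10 genes of the IRE1 and ATF6 arms and of the folding machinery of the endoplasmic reticulum (ER): *Ern1*, *Atf6*, *Xbp1*, *Hspa5*, *Hsp90b1*, *Dnajb9*, *Sdf2l1*, *Pdia4*, *Creld2* and *Herpud1*. They were chosen by name, and matched by GRCm38 symbol to the Ensembl identifiers of the count table. All 10 were found among its 41388 genes, and all 10 reached 10 counts in 1 embryo or more, the filter that 17137 genes passed. The RNA came from single whole early blastocysts at E3.25, 8 *Upf2*-null (*Upf2* -/-) and 11 control (*Upf2* +/+), from matings of heterozygous mice on a C57BL/6 background. Females of 4 to 8 weeks were superovulated, and per the labels early blastocysts were isolated 90 to 94 h after hCG from zygotes cultured in M16. The null allele lacks exons 2 and 3 of *Upf2*, which Cre under the *E2a* promoter had removed between loxP sites in introns 1 and 3, and what is left encodes a truncated protein without activity in nonsense-mediated RNA decay (NMD). Each embryo is 1 library, its genotype was read by PCR from its own cDNA, and litter and batch are not given in the sources used here.

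When proteins fail to fold in the ER, the chaperone BiP leaves the sensors IRE1, ATF6 and PERK and frees them to act. IRE1 excises a short intron from the mRNA of *Xbp1* in the cytoplasm, and the spliced mRNA encodes an active transcription factor. ATF6 travels to the Golgi, where proteases release another. Both factors raise the transcription of ER chaperones, oxidoreductases and degradation factors, while PERK acts through translation and the factors ATF4 and CHOP. NMD removes mRNAs on which translation stops too early or in an unusual place, and *Ern1* and other stress mRNAs are known among its targets in other cells. The comparison asks whether mRNA levels of this pathway differ in blastocysts without UPF2.

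Libraries held 4056072 to 5993745 counts. Counts over the whole *Upf2* gene, on chromosome 2 of GRCm38 from 5951469 to 6056703, ran from 64.3 to 122.6 CPM (counts scaled to the size of the library) in *Upf2*-null embryos and from 37.2 to 87.8 CPM in controls, and since exons that the null allele keeps are counted too, they are no check of genotype. Trophectoderm keratins were present in every embryo, and the 8 cumulus and granulosa markers had at most 3 counts in any embryo, with *Cyp19a1* and *Fshr* at 0. Of 6 epiblast markers, 3 had an unadjusted edgeR p under 0.05, all lower in *Upf2*-null embryos, as were 7.38% of all genes. The log2 fold change was above 0 for 2 of the 6, *Esrrb* (0.48) and *Sox2* (0.09). EdgeR called none of the 6, and 0.193% of all genes. DESeq2 called 2 of the 6 lower, and 1.03% of all genes in either direction. The summed level of the 6 was 292 to 397 CPM in *Upf2*-null embryos against 378 to 637 CPM in controls. For the 8 trophectoderm markers the sums were 1205 to 1691 CPM and 788 to 1841 CPM, and for the 5 measured of 6 primitive endoderm markers 131 to 228 CPM and 95.1 to 229 CPM. The part of cell makeup in the results below was not tested. Since every library is a whole embryo, fewer cells of a type and less RNA per cell cannot be told apart from these counts. By staining of blastocysts, the study reports fewer NANOG-positive cells in *Upf2*-null embryos. It saw no significant difference in GATA6-positive, CDX2-positive or total cells.

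None of the 10 genes differed between *Upf2*-null and control blastocysts at an adjusted p under 0.1 by edgeR's quasi-likelihood test, where 0.193% of all 17137 genes did. At an unadjusted p under 0.05, 0 of 10 were called by edgeR against 12.5% of all genes, 0 by DESeq2 against 8.19%, and 1, *Herpud1*, by limma voom with quality weights against 10.4%. No member was called by DESeq2 or voom after adjustment, where 1.03% and 0.654% of all genes were. The log2 fold changes ran from −0.76 for *Dnajb9* to 0.56 for *Herpud1*. Of the 10, 5 were above 0 and 5 below, with a median of 0.01 beside a median of −0.02 over all tested genes. Summed over the 10 genes, the level was 1131 to 2301 CPM in *Upf2*-null embryos and 1433 to 2166 CPM in controls. The standard errors of the fold changes, from 0.13 to 0.51, had a median of 0.25, close to the median of 0.23 of the 9248 genes with a mean of at least 10 CPM. A p above the threshold does not show that a gene was equal between genotypes, so the 95% interval of each difference is given with its values.

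**Figure D1:**
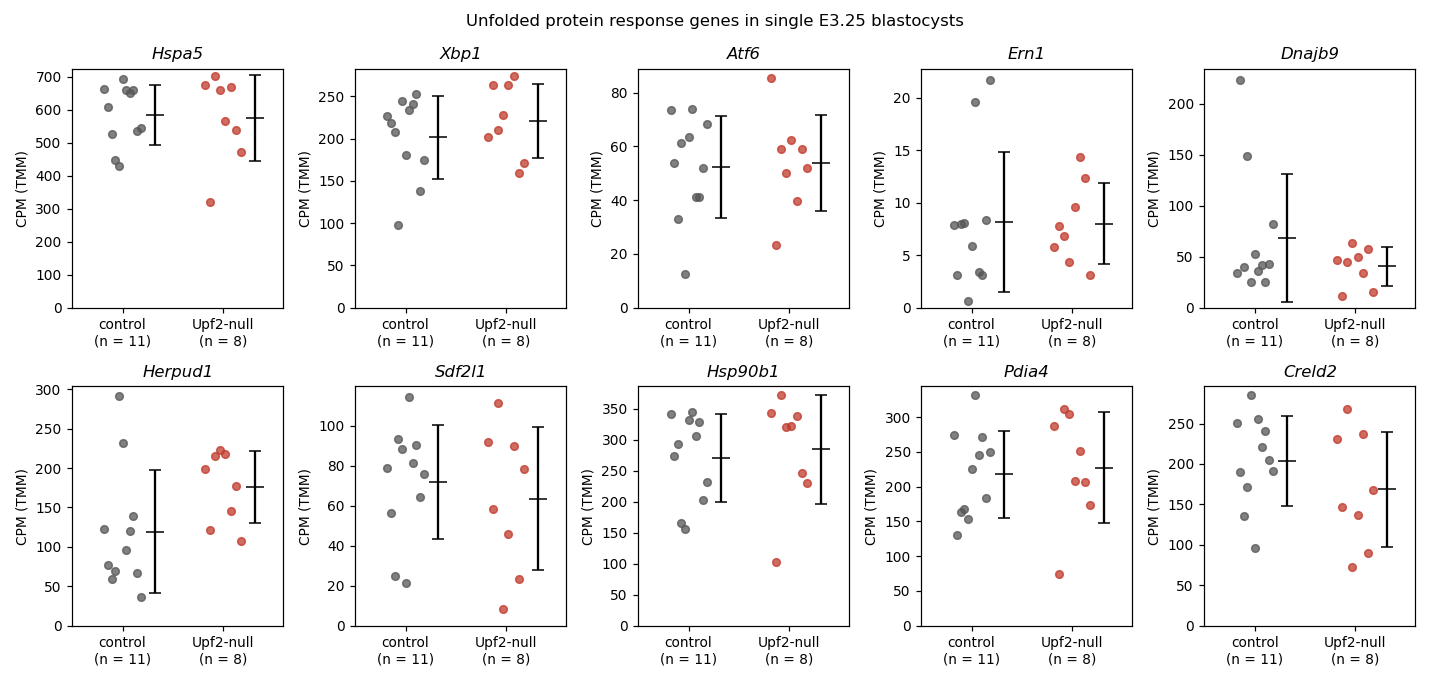
CPM (TMM-normalized, linear axes from 0) of the 10 genes, with 1 point per blastocyst, grey for the 11 controls and red for the 8 *Upf2*-null embryos; horizontal ticks and bars are means and SDs. The groups overlap for all 10 genes, *Upf2*-null embryo 2 is the lowest red point for *Hspa5* at 322 CPM, and control embryos 2 and 4 are the highest grey points for *Dnajb9* at 224 and 149 CPM.

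No difference between genotypes was detected for the sensors and their effector, within wide intervals for the less abundant pair. *Ern1*, which encodes the kinase and RNase IRE1, lies on chromosome 11 from 106394650 to 106487852. From lowest through median to highest, values were 3.09, 7.30 and 14.4 CPM in *Upf2*-null embryos and 0.663, 7.88 and 21.7 CPM in controls. All 8 *Upf2*-null embryos were inside the control range, and control embryos 7 and 11 were the only ones above 15 CPM. With such spread the log2 fold change was −0.03 (standard error 0.51, 95% interval −1.09 to 1.03, edgeR adjusted p = 0.997). An embryo gave 3 to 121 counts of this gene, and neither a doubling nor a halving lies outside the interval.

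*Atf6*, the membrane-bound transcription factor on chromosome 1 from 170704674 to 170867771, had lowest, median and highest values of 23.4, 55.4 and 85.3 CPM in *Upf2*-null embryos and 12.6, 53.8 and 73.8 CPM in controls. *Upf2*-null embryo 2 and control embryo 5 were the lowest of their groups, and the groups overlapped. For *Atf6* the log2 fold change was 0.04 (standard error 0.27, 95% interval −0.52 to 0.60, edgeR adjusted p = 0.986).

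*Xbp1*, the target of IRE1 on chromosome 11 from 5520659 to 5525893, had lowest, median and highest values of 158.8, 219 and 274 CPM in *Upf2*-null embryos and 97.6, 218 and 253 CPM in controls. The medians nearly coincided, and control embryo 4 was the lowest of all. Its log2 fold change was 0.14 (standard error 0.15, 95% interval −0.19 to 0.46, edgeR adjusted p = 0.858). Gene counts add up both forms of the mRNA, so they hold no measure of IRE1 activity.

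The authors' transcript models, merged over the embryos, do hold the spliced form. Of 7 unannotated models at the *Xbp1* locus, 3 have an intron of 26 bases in exon 4 of 5, at chr11:5524278-5524303 on the plus strand of mm10. None of the GENCODE M21 transcripts has it. The sequence is shown because it is the mark of IRE1 cleavage, with the 26 bases in capitals and 15 exon bases on each side:
Xbp1 chr11:5524263-5524318: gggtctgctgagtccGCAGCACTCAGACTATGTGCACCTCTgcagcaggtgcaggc
The bases at its ends repeat, so that 7 placements of the intron give the same spliced sequence, and the models' placement is 1 of them. From the annotated start codon the reading frame holds 267 codons without the splice and 371 with it. Introns this short are rare among these models: of 56645 introns of unannotated models that are not in GENCODE M21, 168 are at most 40 bases long and 5 have a length of 26. The models carry no value per embryo, so the share of spliced *Xbp1* could not be compared between genotypes.

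*Hspa5*, which encodes BiP, lies on chromosome 2 from 34771970 to 34777547 and ranked 18th of 17137 genes by mean CPM, which is not corrected for length. Its lowest, median and highest values were 322, 614 and 702 CPM in *Upf2*-null embryos and 428, 608 and 693 CPM in controls. *Upf2*-null embryo 2 was below every other embryo, and 6 of the 8 *Upf2*-null embryos were inside the control range. For BiP the log2 fold change was −0.02 (standard error 0.13, 95% interval −0.28 to 0.24, edgeR adjusted p = 0.985). On the linear scale that interval is 0.821-fold to 1.18-fold, the narrowest of the 10. The highest count of any gene in any embryo was 4884 after duplicate removal, and *Hspa5* reached 4027. Whether duplicate removal limited its differences was not tested.

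*Hsp90b1*, the ER paralog of HSP90 known as GRP94, lies on chromosome 10 from 86690209 to 86705509. The lowest, median and highest embryos had 103.1, 322 and 372 CPM in *Upf2*-null embryos and 155.6, 292 and 345 CPM in controls. *Upf2*-null embryo 2 again stood below the rest. The log2 fold change was 0.07 (standard error 0.20, 95% interval −0.34 to 0.49, edgeR adjusted p = 0.961), and 0.20 without that embryo (adjusted p = 0.713).

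*Dnajb9*, an ER co-chaperone of the DnaJ family that acts on BiP and IRE1, lies on chromosome 12 from 44205559 to 44210326. Its lowest, median and highest values were 11.2, 46.1 and 63.6 CPM in *Upf2*-null embryos and 25.4, 42.3 and 223.9 CPM in controls. Control embryos 2 and 4, at 224 and 149 CPM, stood far above the other 9 controls, whose highest was 82.1 CPM. The log2 fold change was −0.76 (standard error 0.44, 95% interval −1.67 to 0.15, edgeR adjusted p = 0.540, unadjusted p = 0.0971), although the *Upf2*-null median was the higher. Without control embryo 2 it was −0.39, and without control embryos 2 and 4 it was −0.07 (adjusted p = 0.986).

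*Sdf2l1*, part of an ER chaperone complex with BiP, lies on chromosome 16 from 17130138 to 17132383. The lowest, median and highest embryos had 8.49, 68.3 and 111.4 CPM in *Upf2*-null embryos and 21.5, 79.0 and 114 CPM in controls. *Upf2*-null embryos 4 and 7 and control embryos 3 and 6 were under 25 CPM, and the other 15 embryos were at 46.1 CPM or more. Its log2 fold change was −0.18 (standard error 0.37, 95% interval −0.96 to 0.60, edgeR adjusted p = 0.942).

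Oxidoreductases and folding factors did not pass either. *Pdia4*, a protein disulfide isomerase on chromosome 6 from 47796141 to 47813430, had lowest, median and highest values of 74.2, 230.0 and 312 CPM in *Upf2*-null embryos and 131.0, 225 and 331 CPM in controls. A log2 fold change of 0.06 was fitted (standard error 0.22, 95% interval −0.39 to 0.51, edgeR adjusted p = 0.973). *Upf2*-null embryo 2 was the lowest of all 19, and 7 of the 8 *Upf2*-null embryos were inside the control range.

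*Creld2*, an ER-stress-induced factor with disulfide isomerase activity, lies on chromosome 15 from 88819646 to 88826683. Its lowest, median and highest values were 72.7, 157 and 268 CPM in *Upf2*-null embryos and 95.6, 205 and 285 CPM in controls. *Upf2*-null embryos 4 and 7 were below every control. Its log2 fold change was −0.27 (standard error 0.23, 95% interval −0.75 to 0.20, edgeR adjusted p = 0.755).

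*Herpud1*, an ER membrane protein of the degradation machinery, had the highest fold change and the lowest p of the 10. It lies on chromosome 8 from 94386438 to 94395377. Its lowest, median and highest values were 107.7, 188 and 224 CPM in *Upf2*-null embryos and 37.0, 95.8 and 291 CPM in controls. All 8 *Upf2*-null embryos were above the control median and all 8 were inside the control range, which control embryos 5 and 6 extend to 291 and 232 CPM. The log2 fold change was 0.56 (standard error 0.31, 95% interval −0.07 to 1.20, edgeR adjusted p = 0.499, unadjusted p = 0.0799). By voom, which weights the embryos, it was 0.87 (unadjusted p = 0.00174, adjusted p = 0.167), and without control embryo 5 it was 0.79 by edgeR (adjusted p = 0.254).

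**Figure D2:**
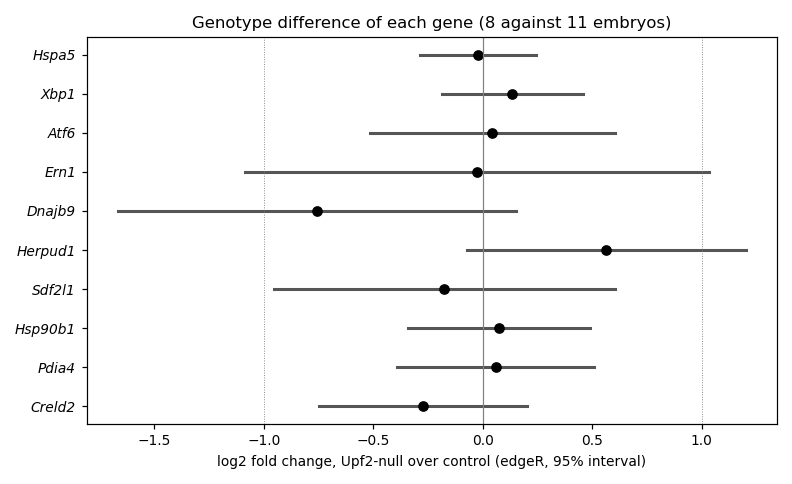
Log2 fold change of each gene, *Upf2*-null over control (points), with its 95% interval from edgeR (lines) on 8 against 11 embryos; dotted lines mark a halving and a doubling. All 10 intervals include 0, and that of *Hspa5*, from −0.28 to 0.24, is the narrowest.

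Per kilobase of exon, the controls ordered the genes as *Creld2* (149 ± 40.7 CPM per kb, SD, n = 11), *Hspa5* (138 ± 21.7), *Pdia4* (90.9 ± 26.0), *Hsp90b1* (67.0 ± 17.5), *Sdf2l1* (64.7 ± 25.7), *Xbp1* (62.0 ± 15.1), *Herpud1* (51.1 ± 33.4), *Dnajb9* (26.9 ± 24.5), *Atf6* (5.66 ± 2.05) and *Ern1* (0.998 ± 0.820). The sensor mRNAs were the lowest. The length was the union of exons over all annotated transcripts of a gene. The longest coding transcript is shorter for some genes: 2129 against 3248 bases for *Xbp1*, 2825 against 4032 for *Hsp90b1*, 3672 against 4229 for *Hspa5*. For *Pdia4* and *Creld2* the lengths are equal, so the order can depend on the length used. Only *Dnajb9* and *Atf6* had ranges that did not overlap among neighbours in this order, although *Hspa5* was above *Pdia4* and *Atf6* above *Ern1* in 11 of 11 controls. *Creld2* was above *Hspa5*, and *Herpud1* above *Dnajb9*, in 8 of 11 controls. *Sdf2l1* was above *Xbp1* in 7 of 11 and *Hsp90b1* above *Sdf2l1* in 5 of 11, so these neighbours could not be ordered. *Pdia4* was above *Hsp90b1*, and *Xbp1* above *Herpud1*, in 9 of 11. Variation between embryos also differed among the genes: the highest embryo exceeded the lowest 2.18-fold for *Hspa5*, 2.81-fold for *Xbp1* and 3.60-fold for *Hsp90b1*, but 13.5-fold for *Sdf2l1*, 20.1-fold for *Dnajb9* and 32.8-fold for *Ern1*, the gene with the fewest counts.

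Although genotype did not separate them, some of the genes varied together from embryo to embryo. To leave genotype out, log2 CPM were centred within each genotype, and the 45 pairs were compared over 19 embryos with permutations within genotype (100000 resamples, two-sided). A Pearson's r of at least 0.8 was found in 4 of the 45 pairs and in 1.02% of all pairs of the 9248 genes with a mean of at least 10 CPM. These 4 pairs formed 2 separate blocks, *Hspa5* with *Hsp90b1* and *Pdia4*, and *Sdf2l1* with *Creld2*. Embryos that share a library bias also share it across genes, so each pair is given with the values without the embryos that lie apart.

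*Hspa5* and *Hsp90b1* had r = 0.96 (permutation p = 1e-05, the smallest the resamples can give, adjusted p = 0.000225 over 45 pairs; Spearman's rho = 0.90, permutation p = 1e-05). An r of at least 0.95 was found in 0.0187% of all pairs of genes. The r was 0.98 within the 8 *Upf2*-null embryos and 0.94 within the 11 controls. It was 0.90 without the 2 embryos farthest from the *Hspa5* median, and 0.86 (permutation p = 6e-05) among the 16 embryos left without those under 450 CPM of *Hspa5*, which are *Upf2*-null embryo 2 and control embryos 4 and 5.

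*Hspa5* and *Pdia4* had r = 0.86 (permutation p = 0.00014, adjusted p = 0.0021; rho = 0.81, permutation p = 0.00012). *Hsp90b1* and *Pdia4* had r = 0.83 (permutation p = 0.0004, adjusted p = 0.0045; rho = 0.83, permutation p = 3e-05). Both leaned on *Upf2*-null embryo 2: without it r fell to 0.73 and 0.66, and without the 2 embryos farthest from the median of the first gene to 0.71 and 0.64. Within controls r was 0.64 and 0.62.

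*Sdf2l1* and *Creld2* had r = 0.93 (permutation p = 1e-05, adjusted p = 0.000225; rho = 0.86, permutation p = 5e-05), 0.96 within *Upf2*-null embryos and 0.88 within controls. Without the 2 embryos farthest from the *Sdf2l1* median r was 0.88, and among the 15 embryos left without those under 25 CPM of *Sdf2l1* it was 0.77 (permutation p = 0.00202). Over the 6 pairs that take 1 gene from each block, r ran from −0.08 to 0.16 and rho from 0.21 to 0.40, and none passed (permutation p from 0.577 to 0.842 for r and from 0.103 to 0.432 for rho). *Hspa5* had r = 0.08 with *Creld2* and r = −0.06 with *Sdf2l1*.

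**Figure D3:**
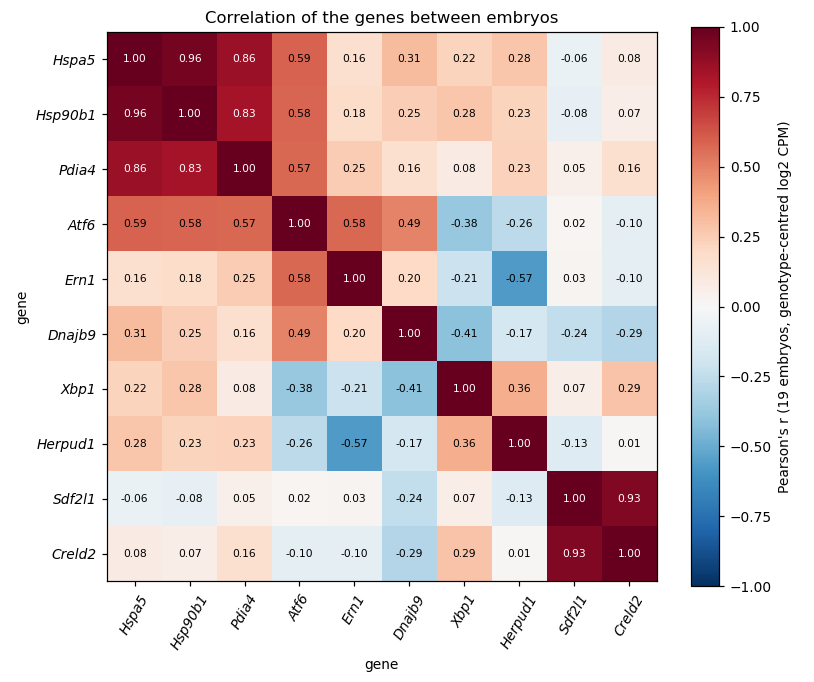
Pearson's r between the 10 genes over 19 embryos, on log2 CPM centred within genotype; red is positive and blue negative, and the number in each cell is r. *Hspa5*, *Hsp90b1* and *Pdia4* form a block at the upper left (0.83 to 0.96), and *Sdf2l1* and *Creld2* a second at the lower right (0.93).

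A further 3 pairs, of *Atf6* with *Hspa5*, *Hsp90b1* and *Pdia4*, had r = 0.59, 0.58 and 0.57 and passed at an adjusted p under 0.1 (permutation p = 0.00709, 0.0108 and 0.00839, adjusted p = 0.0629, 0.0693 and 0.0629). They rest on few embryos: without the 2 embryos farthest from the median of the first gene r was 0.10, −0.01 and 0.28. By rank (rho = 0.43, 0.51 and 0.51, permutation p = 0.065, 0.0319 and 0.0286) none of the 3 passed, with adjusted p-values of 0.266, 0.205 and 0.205. *Xbp1*, *Herpud1*, *Dnajb9* and *Ern1* were in no pair past the threshold over the 19 embryos. Without control embryos 2 and 4, *Dnajb9* passed with *Hspa5*, *Atf6* and *Pdia4* (r = 0.62, 0.57 and 0.64, permutation p = 0.021, 0.01 and 0.0168, adjusted p = 0.0947, 0.0564 and 0.0841). The lowest r was −0.57, between *Ern1* and *Herpud1* (permutation p = 0.0279, adjusted p = 0.139; rho = −0.44, permutation p = 0.077), and it was −0.12 without the 2 embryos farthest from the *Ern1* median.

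The pair *Sdf2l1* and *Creld2* moved with a property of the libraries. In each embryo the log2 CPM of 8966 genes, relative to their mean over embryos, was fitted on the GC content and length of the transcript, and the GC slope ran from −0.62 to 0.36 log2 units per 10 points of GC content. The mean slope was −0.0465 ± 0.35 (SD) for *Upf2*-null embryos and 0.0339 ± 0.244 (SD) for controls. *Sdf2l1* and *Creld2*, whose transcripts have 56.7% and 54.8% GC against a median of 50.3% over genes with a coding transcript, rose with the slope at r = 0.80 and 0.76 (permutation p = 0.00027 and 0.00078, adjusted p = 0.0027 and 0.0039 over 10 genes; rho = 0.74 and 0.71, permutation p = 0.00161 and 0.00277). Without the 2 embryos farthest from the median slope r was 0.76 and 0.74. Among the 15 embryos without those under 25 CPM, *Sdf2l1* had r = 0.65 with the slope (permutation p = 0.0107). *Dnajb9*, at 40.6% GC, had r = −0.51 (permutation p = 0.0282, adjusted p = 0.0939; rho = −0.52, permutation p = 0.028), which fell to −0.30 without the 2 farthest embryos. *Hspa5*, *Hsp90b1* and *Pdia4* had r = −0.02, −0.003 and 0.15 with the GC slope and rho = 0.18, 0.35 and 0.41 (permutation p of rho = 0.476, 0.163 and 0.0925). The same fit gave a length slope, from −0.94 in control embryo 5 to 0.50 in *Upf2*-null embryo 3 (log2 units per 10-fold length). Control embryo 5 was also the lowest control for *Hspa5* and *Hsp90b1* but not for *Pdia4*. Correlation of the genes with the length slope was not tested. After log2 CPM were adjusted for GC content and length, *Sdf2l1* and *Creld2* still had r = 0.88, *Hspa5* and *Hsp90b1* 0.89, *Hspa5* and *Pdia4* 0.83, and *Hsp90b1* and *Pdia4* 0.83.

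**Figure D4:**
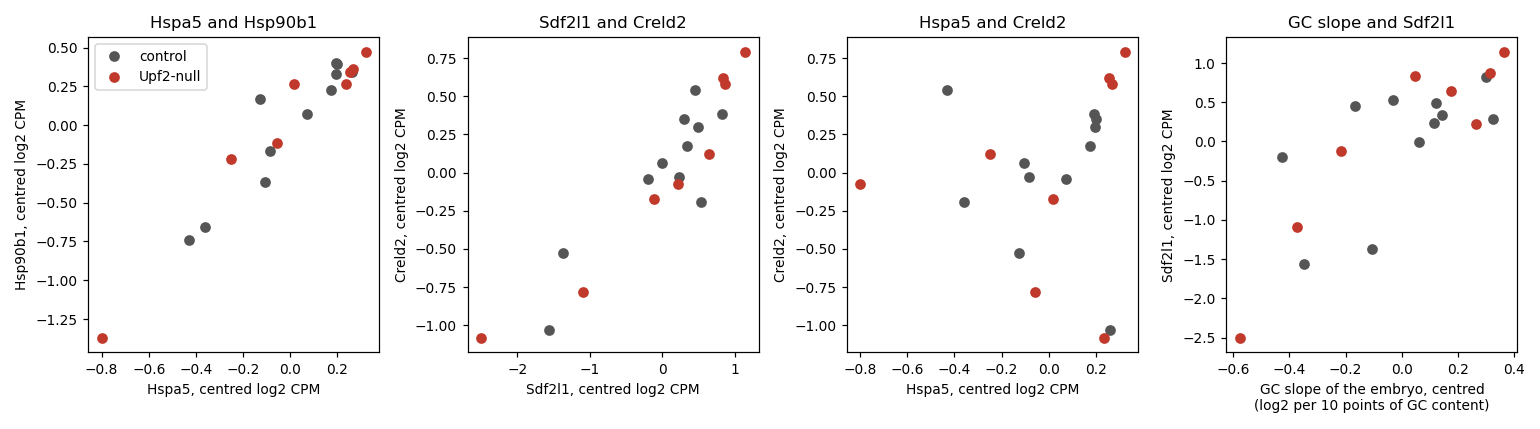
Log2 CPM centred within genotype, with 1 point per embryo (11 controls in grey, 8 *Upf2*-null in red), for *Hsp90b1* against *Hspa5* (r = 0.96), *Creld2* against *Sdf2l1* (r = 0.93), *Creld2* against *Hspa5* (r = 0.08) and *Sdf2l1* against the GC slope of the embryo (r = 0.80). All panels but that of *Creld2* against *Hspa5* rise from lower left to upper right, and the lowest point for *Hsp90b1* is *Upf2*-null embryo 2.

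The blocks also differed in their partners among 100 further genes of the ER and its stress response. Of the 93 with a mean of at least 10 CPM, an r of at least 0.6, a limit chosen after the values were seen, was reached with *Hspa5* by 25 (26.9%, against 5.18% of all genes), with *Hsp90b1* by 28 (30.1% against 5.56%), with *Pdia4* by 31 (33.3% against 4.80%) and with *Atf6* by 24 (25.8% against 8.47%). Genes of this and the next block are named after their values were seen. Among the 93, the closest to *Hspa5* were *Dnajc10*, an ER reductase, the lectin chaperone *Calr* and the disulfide isomerases *Pdia6* and *Pdia3*, with r from 0.85 to 0.86. *Upf2*-null embryo 2 was the lowest *Upf2*-null embryo for each of them. Genes outside the lists were closer to *Hspa5*, among them *Rpn2* and *Stt3a*, both at r = 0.89. The shares were taken over all 19 embryos, and none was taken without that embryo or after adjustment for GC content and length. With *Sdf2l1* the limit was reached by 15 (16.1% against 14.5%) and with *Creld2* by 15 (16.1% against 14.7%), close to the share of all genes. Single genes of the list were close to *Sdf2l1* all the same, with *Erp29* at r = 0.92 and *Ube2g2* at 0.90. The limit was reached with *Dnajb9* by 9 (9.68% against 5.58%), with *Xbp1* by 1 (1.08% against 1.17%) and with *Herpud1* by 0 (against 0.865%). Outside these lists, the genes most like the mean of the 10 genes' z scores over 19 embryos were *Fam234a* (r = 0.85), the integrin subunit gene *Itgb1* (0.83), *Dhrs13* (0.83), *Tmem62* (0.82) and *Tm9sf2* (0.82).

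Some of the promoters hold the element through which ATF6 and XBP1 are known to act. RefSeq promoters on GRCm38.p6, from 250 bases before to 50 after the start, were at hand for 9 of the 10 genes, all but *Atf6*. The ER stress response element (ERSE), CCAAT and CCACG with 9 bases between them, was found on either strand in 3 of 9, *Hspa5*, *Hsp90b1* and *Creld2*, and in 0.119% of all 32851 promoters. ERSE-II, ATTGG and CCACG with 1 base between them, was found in *Herpud1* and in 0.0365% of all promoters. These 5 matches are shown along the strand of the gene, with the motif ends in capitals (CGTGG and ATTGG where the match is on the opposite strand) and 10 bases on each side:
Hspa5 chr2:34772015-34772053: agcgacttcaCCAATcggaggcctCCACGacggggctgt
Hsp90b1 chr10:86705628-86705666: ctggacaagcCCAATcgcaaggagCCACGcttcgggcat
Hsp90b1 chr10:86705523-86705561: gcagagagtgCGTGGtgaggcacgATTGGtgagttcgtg
Creld2 chr15:88819510-88819548: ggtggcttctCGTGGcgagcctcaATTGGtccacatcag
Herpud1 chr8:94386367-94386397: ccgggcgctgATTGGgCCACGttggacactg
*Hspa5*, *Creld2* and *Herpud1* lie on the plus strand and *Hsp90b1* on the minus strand. The matches begin 65, 212, 107, 126 and 52 bases before the RefSeq start, which can differ from the GENCODE bounds given above. For *Hspa5* the match lies inside those bounds. CCACG alone, which both elements contain, was found in 8 of 9, all but *Xbp1*, and in 32.8% of all promoters, and TGACGTG, the core of the XBP1-bound UPRE, in *Hspa5* and in 2.01%. *Creld2*, which has the ERSE, varied with *Sdf2l1*, which has none in this window, and *Pdia4*, which has none there either, varied with *Hspa5*. The genes were chosen by name as genes of this response, so the shares of promoters are a description and not a test. A match describes letters and is not evidence of binding in these embryos.

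Features on which NMD can act were read from the annotation. GENCODE M21 annotates transcripts as NMD substrates at 2 of the 10 genes, 1 at *Hspa5* and 2 at *Herpud1*, against 26.6% of 14297 tested genes with a coding transcript. Among transcripts of the protein-coding type, none of the 10 genes has one with an exon junction more than 50 bases past the stop codon, against 1.27% of those genes. Transcripts annotated as NMD substrates were left out of this count, so it cannot show that the genes lack the feature. *Atf6* and *Ern1* have the longest 3′ UTRs of the 10, at 5205 and 3892 bases against a median of 825, and 2.62% and 6.06% of those genes have longer ones. Both had fold changes near 0. The others run from 247 bases for *Creld2* to 1434 for *Hspa5*.

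The 100 further genes were taken in 6 groups, and 98 of them passed the filter. Of these, edgeR called 1 higher and 0 lower, where 0.175% and 0.0175% of all genes were, and the called gene was *Ddit3*. At an unadjusted p under 0.05, 5 were higher (5.15% of all genes) and 1 lower (7.38%). The fold change was above 1 for 59 of the 98 and below 1 for 39, with a median of 0.04 on the log2 scale. DESeq2 called 2 higher and voom 4 higher, and neither called one lower.

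Among 86 measured genes outside the PERK arm, edgeR and DESeq2 called none. The unadjusted edgeR p was under 0.05 for 2 of them, both of ER-associated degradation: *Ube2j1*, an E2 enzyme of the ER membrane, had a log2 fold change of −0.46 (edgeR p = 0.00986, adjusted p = 0.262). Its level averaged 76.6 ± 17.3 CPM (SD) over controls and 55.8 ± 11.8 CPM (SD) over *Upf2*-null embryos, of which none was above the control median. *Ufd1*, a cofactor of the segregase VCP named after its values were seen, had 0.22 (p = 0.0183) and was called by voom alone (adjusted p = 0.0711). DESeq2 gave an unadjusted p under 0.05 for 2 of the 86 and voom for 5, where 8.19% and 10.4% of all genes had one. The medians of the 5 groups were 0.01 for 12 measured sensors and signalling genes, 0.04 for 16 chaperones and cofactors, 0.03 for 14 oxidoreductases, 0.02 for 20 degradation genes and 0.03 for 24 genes of ER entry and export. The genes with the lowest p of the other groups were *Atf6b*, the paralog of *Atf6* (−0.67, p = 0.197), the ER prolyl isomerase *Fkbp2* (−0.17, p = 0.142), the disulfide isomerase *Pdia5* (−0.26, p = 0.0637) and *Sec11c*, a subunit of the signal peptidase (0.22, p = 0.0647), with edgeR adjusted p-values from 0.450 to 0.701.

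The PERK arm held the called gene. Of its 12 measured genes, 1 was called higher by edgeR, 2 by DESeq2 and 3 by voom, and 0 lower by any of the 3 tools, with 4 higher and 0 lower at an unadjusted edgeR p under 0.05 and a median log2 fold change of 0.25. The arm did not move as a whole: 8 of the 12 log2 fold changes were above 0 and 4 below, the lowest at −0.56. Over all genes edgeR called 0.175% higher, 5.15% were higher at an unadjusted edgeR p under 0.05, and DESeq2 and voom called 1.03% and 0.654% in either direction. *Ddit3*, which encodes CHOP, had lowest, median and highest values of 50.7, 60.4 and 87.0 CPM in *Upf2*-null embryos and 9.88, 28.0 and 45.3 CPM in controls. The groups did not overlap, which was so, in this direction, for 0.0875% of all genes, and the log2 fold change was 1.34 (standard error 0.23, edgeR adjusted p = 0.0251). In the 16 embryos that share a replicate number it was 1.34 with the number as a block, which ended the call (edgeR adjusted p = 0.487), and 1.29 without the block (adjusted p = 0.0672). *Atf4*, its activator, had a log2 fold change of 0.43 (edgeR adjusted p = 0.111, DESeq2 adjusted p = 0.0146), with all 8 *Upf2*-null embryos above the control median. The study names both from these same embryos, which makes their direction no independent evidence. *Nupr1*, a stress-induced nuclear protein named after its values were seen, was the third voom call, with lowest, median and highest values of 23.9, 58.4 and 92.5 CPM in *Upf2*-null and 1.15, 14.9 and 94.3 CPM in control embryos. Control embryo 11 held the highest value, above all 8 *Upf2*-null embryos, and the other 10 controls were at or below 20.8 CPM. The log2 fold change of *Nupr1* was 1.51 (edgeR adjusted p = 0.262, voom adjusted p = 0.0248) and 2.20 without control embryo 11 (edgeR adjusted p = 0.0675). *Atf3*, a stress-induced transcription factor also named after its values were seen and at an unadjusted edgeR p under 0.05, summed to 216 counts in *Upf2*-null and 22 in control embryos (p = 0.00857, adjusted p = 0.262). *Upf2*-null embryo 2 held 91 of the 216 and control embryo 7 held 15 of the 22, and *Atf3* was at 0 in 3 of 8 *Upf2*-null and 8 of 11 control embryos.

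**Figure D5:**
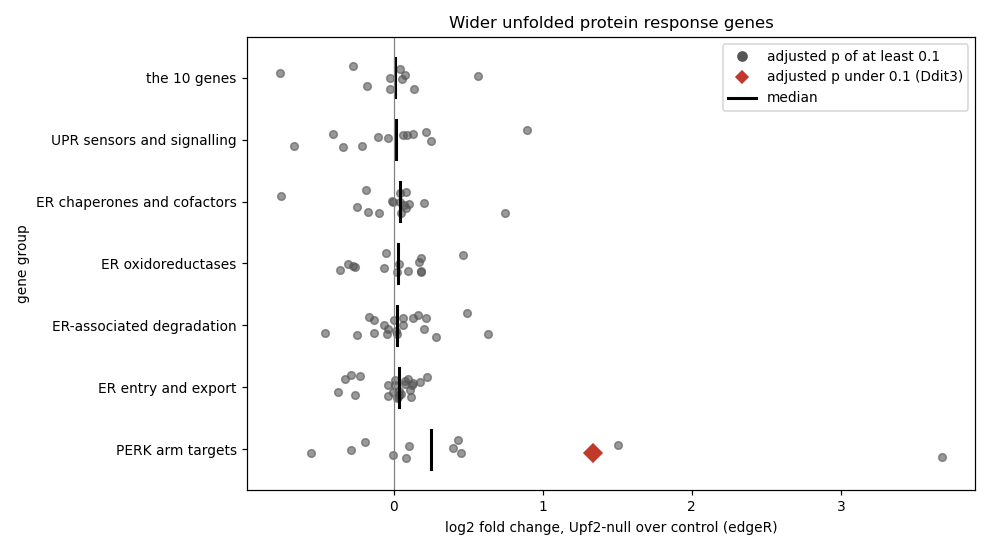
Log2 fold change, *Upf2*-null over control by edgeR, of the 10 genes and of 98 further genes in 6 groups; each point is 1 gene, black bars are group medians, and the red diamond is *Ddit3*, the 1 gene at an adjusted p under 0.1. The medians lie between 0.01 and 0.04 except in the PERK arm, at 0.25.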

How the data were processed

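RNA of single blastocysts was amplified with the SMARTer Ultra Low Input kit, made into Nextera XT libraries and sequenced in pairs. The authors aligned reads to GRCm38 with STAR 2.5.2a, used SAMtools to drop duplicates and counted pairs over Ensembl genes with featureCounts, which gave the deposited counts; strand is not stated. The deposited scaled signal values are the counts times 1 factor per embryo: 100% of values gave whole reads (tolerance 0.01), on which edgeR called 33 genes, as on the counts. The authors' merged models (HISAT2, StringTie) hold exons on mm10.

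Groups came from the labels. The main test, for genes that reached 10 counts in any 1 embryo, was edgeR 4.0.16 (quasi-likelihood, robust, TMM, no covariate, Benjamini-Hochberg over all genes, threshold 0.1), with DESeq2 1.42.0 and limma 3.58.1 as alternatives. Within each genotype every 2 embryos differed by more than sampling noise (chi-square per gene at least 10.5). Symbols and features came from GENCODE M21, log2 CPM used a prior count of 2, and scripts were tested on simulated data. R 4.3.3, Python 3.11.15 and scipy 1.17.1 were used. The 10 genes and the lists were chosen with earlier results of these data known. Text names the 10 genes, list genes past the threshold in edgeR or DESeq2, the gene with the lowest p of each group, *Atf4*, *Ddit3* and the 5 genes most like the 10; others are marked. No ERCC spike-in was used here.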

Additional observations from a re-analysis of the deposited data

Results flagged for a closer look

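In 17 named genes, the *Upf2*-null embryos were searched for 1 that lies apart on the log2 CPM scale, by the gap to its nearest neighbour over the range of the 8 embryos (limit 0.526), which chance exceeds in about 1 of 20 groups. *Upf2*-null embryo 2 lay apart for *Hsp90b1*, at 103.1 CPM against 229.9 CPM in the next embryo (0.625 of the range), and for *Pdia4*, at 74.22 CPM against 173.1 CPM (0.59 of the range). The same embryo was the lowest *Upf2*-null embryo for 5 of the 10 genes, and its total count was within the range of the others. Controls were not searched in this way. Control embryo 5 was likewise the lowest control for *Hspa5*, *Hsp90b1*, *Atf6*, *Ern1* and *Dnajb9*. Low values in *Upf2*-null embryo 2 were not particular to the 10 genes. This embryo was also the lowest *Upf2*-null embryo for all of the 16 further chaperones and cofactors but *Cnpy2*. The same held for *Pdia3* and *Pdia6*, though not for *Pdia5*. Among the PERK arm targets it held for *Ppp1r15b* and *Nupr1* alone. *Cnpy2* and *Ppp1r15b* are named after their values were seen. The share over all genes was not counted. The cause was not tested.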

How the results depend on the processing

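In none of the 14 alternatives was a member called higher or lower (0 in each), nor when any 1 embryo was left out (0 to 0), and no wider gene was called lower (0). Wider genes called higher were 1 by edgeR, 2 by DESeq2, 4 by voom, 2 with at least 10 counts in at least 5 embryos, 2 with limma-trend on the scaled table, 2 with the GC slope as a covariate, and 1 to 2 with an embryo left out (2 without *Upf2*-null embryo 3 or control embryos 6 or 11). *Ddit3* was called in each of these. Where 2 were called the other was *Atf4*, or *Nupr1* without control embryo 11, and voom called *Atf4*, *Nupr1* and *Ufd1* beside it. Directions of the 10 genes turned only where the fold change of the main fit was near 0, and none of these genes was called. *Hspa5* turned with total counts (0.0028). *Pdia4* turned with voom (−0.0588), without control embryos 2 and 4 (−0.0467) and on the scaled table (−0.0024). *Ern1* turned with voom (0.15), upper-quartile factors (0.0101), the GC slope (0.15) and the scaled table (0.20). *Ern1* moved furthest with the replicate number as a block (0.38), and turned in the same embryos without the block (0.18). With 1 embryo left out, *Hspa5* ran from −0.0666 to 0.0675, *Atf6* from −0.0824 to 0.16, *Ern1* from −0.20 to 0.23 and *Pdia4* from −0.0197 to 0.19. Pairs past the threshold were 7, but 4 by Spearman's rho, 4 without *Upf2*-null embryo 2 and 4 after GC and length adjustment, in each case the pairs of both blocks, and 10 without control embryos 2 and 4, which held all 7.

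Replicate numbers did not pair the embryos: deviations of same-numbered embryos correlated between −0.14 and 0.07, over 0.1 in 0 of 8 pairs, and 0 embryos correlated best with their own number. With the number as a block 0 members and 0 wider genes were called, against 2 wider genes, *Ddit3* and *Nupr1*, in the same 16 embryos without it, *Ddit3* was 1.34 with the block (adjusted p = 0.487) and 1.29 without it, and *Ern1* was 0.38 and 0.18. The GC covariate, the recovered reads, the 16 embryos without the block, and pairs without *Upf2*-null embryo 2 or adjusted for GC and length were chosen after seeing the data. *Ern1* had the fewest counts of the 10, at 3 to 121 per embryo.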
